A study of Mus musculus with 3 samples.

Results

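Small leucine-rich proteoglycans are secreted matrix proteins, and 9 genes of this family were followed here: Dcn (decorin), Bgn (biglycan), Aspn (asporin), Lum (lumican), Fmod (fibromodulin), Prelp, Omd (osteomodulin), Ogn (osteoglycin) and Podn (podocan). A probe was taken for a member when the RefSeq transcript it names, without its version, belonged to that gene. Of the 9 members, 8 were matched by 1 probe each, and Prelp was matched by none and is not analysed here. All 8 matched members entered, among 15393 genes with a spot well above background somewhere, and 6 of the 8 passed that flag of the scanner software on every array.

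The members share a core of leucine-rich repeats that binds collagen fibrils and limits or orders their growth. Many of them carry glycosaminoglycan chains, which are chondroitin or dermatan sulfate on decorin and biglycan and keratan sulfate on lumican, fibromodulin and osteomodulin. Their core proteins also hold growth factors such as TGF-β, and soluble biglycan and decorin can bind Toll-like receptors. In the heart they are made largely by fibroblasts, and several are deposited in the scar that forms after infarction.

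Agilent SurePrint G3 microarrays with 1 colour were used to profile myofibroblasts of the mouse heart, the contractile fibroblasts that lay down matrix after injury. The cells came from male C57BL/6J mice, given as 8 weeks old in one label and as 10 weeks old at surgery in another, in which the left anterior descending coronary artery had been tied permanently 3 days before the hearts were taken. All 3 groups shared this injury, and in all of them the digested cells had attached to plastic overnight and had been depleted of cells with CD45, a surface protein of leukocytes. Adherent cells were kept on plastic plates, non-adherent cells were moved from plates into suspension, where myofibroblasts lose their contractile state, and re-adherent cells were put back on plates after suspension. Each group had 1 array of RNA mixed from several hearts, so no spread between replicates exists and no test was possible. The states were collected one after another, so state and total time in culture cannot be told apart, and the methods describe loss of cells by death during suspension.

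Levels are given as log2 normalised signal, which is the processed signal of the spot divided by the 75th percentile of its array, so that 0 is that percentile. A difference is given with the technical error of the scanner software for the 2 spots, which covers error within the arrays only. A gene was called higher or lower when its signal differed over 2-fold, that is by over 1 on the log2 scale. The 75th percentile of signal was 651 in adherent, 697 in non-adherent and 541 in re-adherent cells, the share of non-control spots above background lay between 53.9% and 59.9%, and no such spot was saturated. Of markers of the cell type in the labels, 7 of 7 for fibroblasts and 5 of 5 for myofibroblasts were well above background on every array. This flag shows that a marker was detected and does not tell cell types apart. Of 11 macrophage and leukocyte markers, 10 were measured and all 10 were well above background on every array too, among them Ptprc, which encodes CD45, with a signal of 355 in adherent, 2441 in non-adherent and 532 in re-adherent cells.

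Several members lie next to each other in the genome, and the neighbours on chromosome 13 are shown by sequence because their differences on re-adhesion ran in opposite directions. By gene order in the RefSeq table of the mouse assembly GRCm38.p6, Ecm2, Aspn, Omd and Ogn follow each other on chromosome 13 with no other coding gene between them. The sequences below are the 250 bases before the start of each gene from RefSeq, on the plus strand of GRCm38.p6, at chr13:49544193-49544442 (Aspn), chr13:49582212-49582461 (Omd) and chr13:49607765-49608014 (Ogn), with matches to the searched motifs in capitals.
Aspn: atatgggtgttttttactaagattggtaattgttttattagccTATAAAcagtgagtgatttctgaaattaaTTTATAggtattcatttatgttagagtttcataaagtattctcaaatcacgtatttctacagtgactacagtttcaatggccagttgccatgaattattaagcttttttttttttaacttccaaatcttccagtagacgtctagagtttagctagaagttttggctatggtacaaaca
Omd: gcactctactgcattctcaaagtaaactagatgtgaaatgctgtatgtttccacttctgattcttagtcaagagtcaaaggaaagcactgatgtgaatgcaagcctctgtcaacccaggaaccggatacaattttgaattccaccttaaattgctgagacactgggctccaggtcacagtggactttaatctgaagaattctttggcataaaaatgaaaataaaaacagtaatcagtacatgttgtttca
Ogn: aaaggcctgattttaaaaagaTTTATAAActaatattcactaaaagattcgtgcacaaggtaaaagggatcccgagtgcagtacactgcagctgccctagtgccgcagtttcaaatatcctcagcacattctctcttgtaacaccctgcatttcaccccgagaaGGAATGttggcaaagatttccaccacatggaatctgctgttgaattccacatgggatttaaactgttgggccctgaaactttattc

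The motifs were searched on both strands in windows of 300 bases, from 250 before to 50 after the start. They were the TATA box TATAAA, the TEAD site GGAATG, the AP-1 site TGANTCA, the SMAD element CAGACA and the CArG box, the site of serum response factor. The capitals of Aspn mark TATAAA 207 bases before the start and its reverse 178 bases before it. In Ogn they mark TATAAA 227 bases before the start, which overlaps its own reverse match, and a TEAD site 86 bases before the start. No searched motif was found in the window of Omd, which says only that these letters are not there. Of all 32851 windows in the table, 13.6% held TATAAA, 14.7% the TEAD site, 7.81% the AP-1 site, 21.0% the SMAD element and 1.63% the CArG box. Windows were found for 7 of the 9 members, 8 windows in all, and the members without one were Dcn and Lum. TATAAA was present in 2 of the 8, the TEAD site in 1, the SMAD element in 2 (Prelp and Podn), and the AP-1 site and CArG box in 0. The windows of Aspn, Omd and Ogn held 31%, 37.7% and 42.3% G or C, against a median of 52.7% over all windows. A match is a description of letters and not evidence of binding.

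The first comparison asked how the members differed when myofibroblasts lost their attachment, from adherent to non-adherent cells. Lum, Podn and Dcn were over 2-fold higher in suspension, Omd and Ogn were over 2-fold lower, and Bgn, Fmod and Aspn differed by less than that. The members called thus numbered 3 of 8 higher and 2 of 8 lower, where 17.2% of the 15393 genes were called higher and 14.7% lower. The median difference of the 8 members was 0.04, against -0.07 over all genes, because members lay on both sides. Past 4-fold, 1 member was higher (Lum) and 2 were lower (Omd and Ogn), where 7.61% of all genes were higher and 5.34% lower.

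The second comparison asked how the members differed when cells in suspension returned to plates. Lum, Dcn, Podn and Aspn were lower in re-adherent than in non-adherent cells, and Omd and Ogn were higher. This gave 4 of 8 members lower and 2 of 8 higher, where 16.3% of genes were called lower and 15.6% higher. The median member difference was -1.15, against 0.08 over all genes. By measured value 4 members were past 4-fold lower and 1 was past 4-fold higher, beside 6.05% and 5.7% of all genes. Of these, Aspn and Omd had a spot that was not well above background on 1 of the arrays, and with such spots counted at their bound 3 members were past 4-fold lower (Lum, Dcn and Podn) and 0 were higher.

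The third comparison set re-adherent against adherent cells, which asks whether a level came back to where it had been on plates. In this comparison 6 of 8 members, or 75%, were over 2-fold lower (Lum, Aspn, Dcn, Ogn, Podn and Omd) and 0 were higher, where 4.9% of genes were called lower and 4.84% higher. With dim spots at their bound these were still 6 of 8, beside 2.94% of all genes lower. The median member difference was -1.22, against 0.06 over all genes. Past 4-fold 2 members were lower by measured value, beside 1.29% of genes lower and 1.36% higher, and 1 of them, Lum, was past it at its bound, since Aspn was dim in re-adherent cells. Bgn and Fmod were the members that did not differ over 2-fold. With background correction by normexp, in which an offset of 50 is added to every signal, 3 of the 8 members passed 2-fold lower in this comparison (Lum, Dcn and Ogn), and Aspn, Omd and Podn, with weaker signals, were at -0.54, -0.32 and -0.51. The 3 comparisons share arrays and are not independent of each other.

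**Figure D1:**
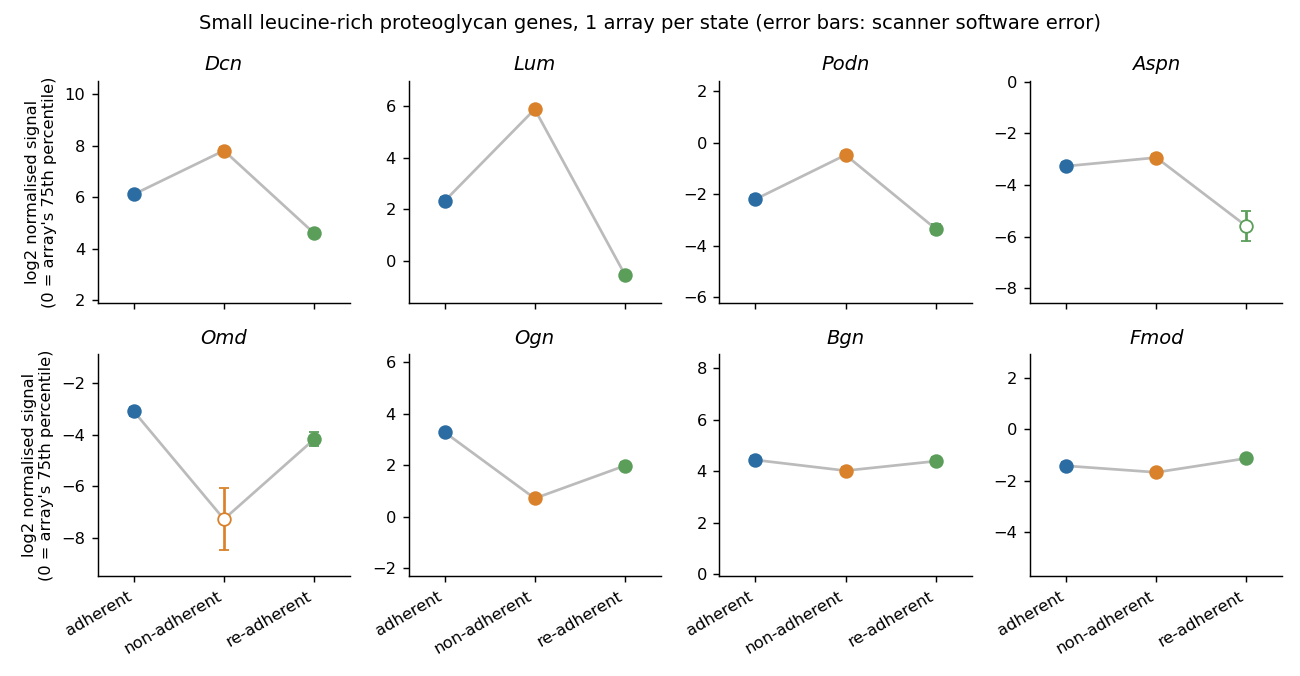
Log2 normalised signal (vertical axis, 0 is the 75th percentile of the array) of each of the 8 measured members in adherent, non-adherent and re-adherent cells, 1 array a group, with the technical error of the spot as bars and open points where the spot was not well above background. Lum ran from 2.33 to 5.89 and then to -0.52, Ogn from 3.28 to 0.72 and then to 1.99, and Bgn lay between 4.02 and 4.44.

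**Figure D2:**
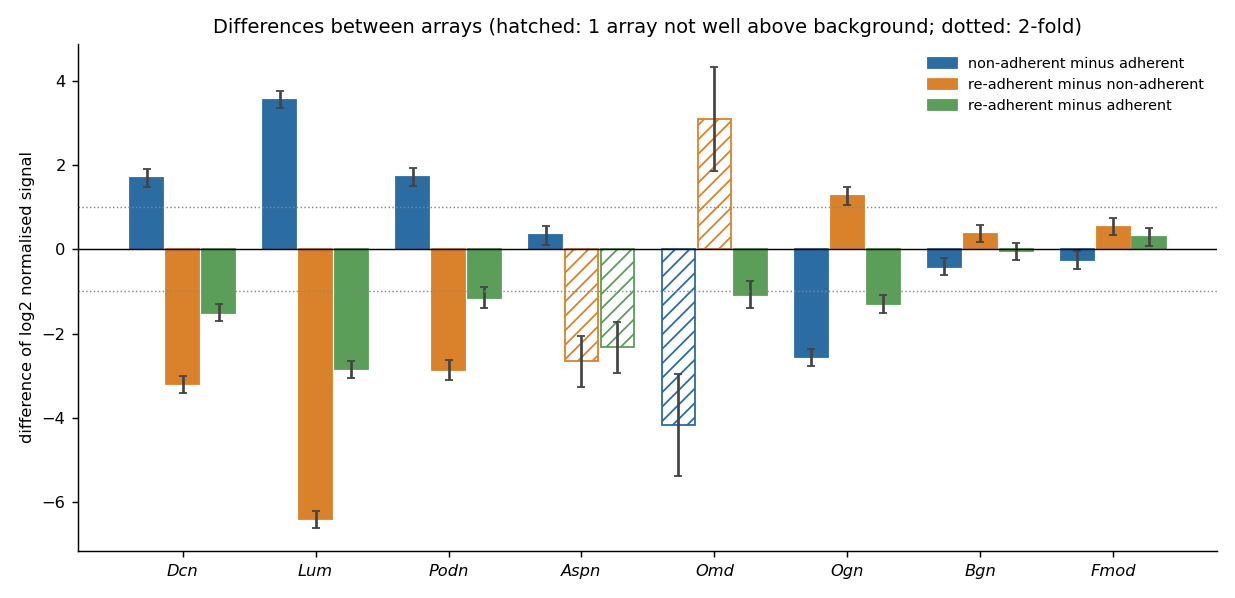
Differences of log2 normalised signal for the 8 measured members in the 3 comparisons, with the technical error of each pair of spots as bars and lines at the 2-fold limits. In the comparison of re-adherent with adherent cells 6 members lie beyond the lower limit, and Bgn at -0.05 and Fmod at 0.29 lie between the limits.

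Lum encodes lumican, a keratan sulfate proteoglycan that sets the width and spacing of collagen fibrils. Its processed signal was 3275 in adherent, 41309 in non-adherent and 377 in re-adherent cells, or 2.33, 5.89 and -0.52 as log2 normalised signal. The signal was highest in suspension and lowest after re-adhesion. The difference was 3.56 ± 0.20 (11.8-fold higher) on leaving the plate, -6.41 ± 0.20 (85.2-fold lower) on re-adhesion and -2.85 ± 0.20 (7.23-fold lower) between re-adherent and adherent cells. Only 15 of the 15393 genes had a lower value than Lum on re-adhesion, and 45 had a lower one in re-adherent against adherent cells.

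Dcn encodes decorin, which carries a single glycosaminoglycan chain, wraps collagen fibrils and binds TGF-β. The signal of its probe was 45013, 155977 and 13156 in adherent, non-adherent and re-adherent cells, which gave log2 levels of 6.11 and 7.81 before and in suspension and 4.6 after it. The order of the 3 states was the same as for Lum, with a smaller range. Suspended cells were 1.69 ± 0.20 above adherent cells (3.24-fold), and re-adherent cells were below suspended cells, at -3.20 ± 0.20 (9.21-fold lower), and below adherent cells, at -1.51 ± 0.20 (2.85-fold lower).

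Podn encodes podocan, a family member of the later described classes that lacks a well established chain. It gave signals of 143, 503 and 53.6, with log2 levels of -2.19, -0.47 and -3.34 in the adherent, non-adherent and re-adherent states. The pattern was again highest in suspension and lowest after re-adhesion. The differences were 1.72 ± 0.21 in suspension, -2.87 ± 0.24 on re-adhesion and -1.15 ± 0.25 between re-adherent and adherent cells, or 3.29-fold higher, 7.29-fold lower and 2.22-fold lower.

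Aspn encodes asporin, a relative of decorin that binds collagen and TGF-β and usually carries no chain. Its signals were 67.6 in adherent and 91.1 in non-adherent cells, and 11.2 in re-adherent cells, where the spot was not well above background. In suspension Aspn differed by 0.33 ± 0.23, less than 2 errors, and this value turned to -0.07 when arrays were scaled to their spike-in probes. By the bound for dim spots, re-adherent cells were at least 3.86-fold lower than suspended cells and at least 3.07-fold lower than adherent cells. The measured differences were -2.66 ± 0.61 and -2.33 ± 0.61. With normexp they were -0.67 and -0.54, both under the 2-fold limit, so these bounds hold for the main processing only.

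Dcn, Lum and Podn, together with Aspn less clearly, therefore formed the members that were highest in suspension and lowest after re-adhesion. Summed signals of the endothelial markers and of the pericyte and smooth muscle markers were in the same order. The summed normalised signal of the 7 endothelial markers, in percent of the 75th percentile of the array, was 881 in adherent, 2399 in non-adherent and 313 in re-adherent cells, and 7, 7 and 5 of the 7 were well above background, with Tie1 and Emcn dim after re-adhesion. Of these 7, 5 were over 2-fold higher in suspension and 7 were lower on re-adhesion, beside 17.2% and 16.3% of all genes. In re-adherent against adherent cells 5 were lower, beside 4.9%, or 4 with Tie1 at its bound, beside 2.94%. The medians were 1.21, -2.76 and -1.92. Cdh5, the cadherin of endothelial junctions, differed by 2.94, -6.12 and -3.18 in the 3 comparisons. The 5 pericyte and smooth muscle markers summed to 258, 371 and 134, and 3, 4 and 2 of the 5 were well above background. These 5 were split. With dim spots at their bound, 2 were over 2-fold higher and 1, Myh11, lower in suspension, beside 15.8% and 13.8% of all genes. On re-adhesion 3 were lower and Myh11 was higher, beside 13.9% and 14.9%. Myh11 was also the 1 lower in re-adherent against adherent cells, beside 2.94%. Whether endothelial cells or pericytes had a part in the member differences was not tested. In bulk RNA fewer cells of a type and less RNA per cell cannot be told apart.

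The macrophage and leukocyte markers were higher in suspension as well, with 9 of 10 measured over 2-fold higher, beside 17.2% of all genes. Their summed signal of 19419, 112434 and 36068, however, was higher after re-adhesion than in adherent cells. The 7 fibroblast markers summed to 49851, 34128 and 38659, with medians of -0.70 in suspension, 0.44 on re-adhesion and -0.23 in re-adherent against adherent cells. None of these 7 differed over 2-fold between re-adherent and adherent cells, where few genes did, 4.9% lower and 4.84% higher. In suspension 3 of the 7 (Thy1, Tcf21 and Ddr2) were over 2-fold lower and 1 (Dpt) was higher, beside 14.7% and 17.2% of all genes. On re-adhesion the same 3 were higher and Dpt was lower, beside 15.6% and 16.3%. Thy1 was at -3.50 in suspension and 3.27 on re-adhesion, and Tcf21 at -1.75 and 1.89. Dpt, which encodes the collagen-binding matrix protein dermatopontin, thus ran against the other called markers, with signals of 99.1, 3002 and 86.2. It differed by 4.82 in suspension, -4.76 on re-adhesion and 0.06 between re-adherent and adherent cells. The 5 myofibroblast markers summed to 163583, 2989 and 162885, with Acta2, the smooth muscle actin, at -6.64, 6.57 and -0.07 in the 3 comparisons. The part of these shifts in the member values was not tested.

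Ogn and Omd were the members with the opposite order on losing attachment. Ogn encodes osteoglycin, also named mimecan, a shorter core protein expressed in heart and bone. The signal was 6343 in adherent, 1147 in non-adherent and 2145 in re-adherent cells, with log2 levels of 3.28, 0.72 and 1.99. It was lowest in suspension and lay between the other states after re-adhesion. The differences were -2.57 ± 0.20 (5.92-fold lower), 1.27 ± 0.20 (2.41-fold higher) and -1.30 ± 0.20 (2.46-fold lower). On re-adhesion the difference of Ogn was just under the 2-fold limit with the scaled values of the authors (0.99), without scaling (0.90) and after subtraction of the local median of nearby spots (0.90).

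Omd encodes osteomodulin, an acidic keratan sulfate proteoglycan best known from bone. Its signals were 76.0 in adherent and 29.9 in re-adherent cells, and 4.49 in non-adherent cells, where the spot was not well above background. Omd was therefore at least 5.80-fold lower in suspension and at least 2.74-fold higher on re-adhesion, with measured differences of -4.18 ± 1.22 and 3.10 ± 1.24. Re-adherent cells were 2.12-fold below adherent cells, at -1.08 ± 0.32. With normexp the difference on re-adhesion was 0.72, below the 2-fold limit, and the difference in suspension was -1.04.

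Bgn and Fmod were the steadiest members. Bgn encodes biglycan, the closest relative of decorin. The Bgn probe gave 14106, 11328 and 11362, or log2 levels of 4.44, 4.02 and 4.39, a narrow range against that of Dcn. Its differences were -0.41 ± 0.20 in suspension, just over 2 errors, 0.37 ± 0.20 on re-adhesion and -0.05 ± 0.20 between re-adherent and adherent cells. The value in suspension was under 2 errors with quantile normalisation (-0.34), the scaled values of the authors (-0.32), no scaling (-0.32) and the local median subtracted (-0.11), and was -0.81 with spike-in scaling. The second value turned to -0.17 when the local median of nearby spots was subtracted.

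Fmod encodes fibromodulin, which binds collagen at a site shared with lumican. Its signals of 243, 218 and 247 gave log2 levels of -1.42, -1.67 and -1.13. The differences were -0.25 ± 0.21, 0.54 ± 0.21 and 0.29 ± 0.21, of which the one on re-adhesion exceeded 2 errors as reported and fell under them with the scaled values of the authors (0.27), no scaling (0.18) and the local median subtracted (0.04). The first turned to 0.05 with the local median subtracted and the last to -0.19 with spike-in scaling. A difference under 2-fold on 1 array a group does not show that the level was the same in the cells.

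**Figure D3:**
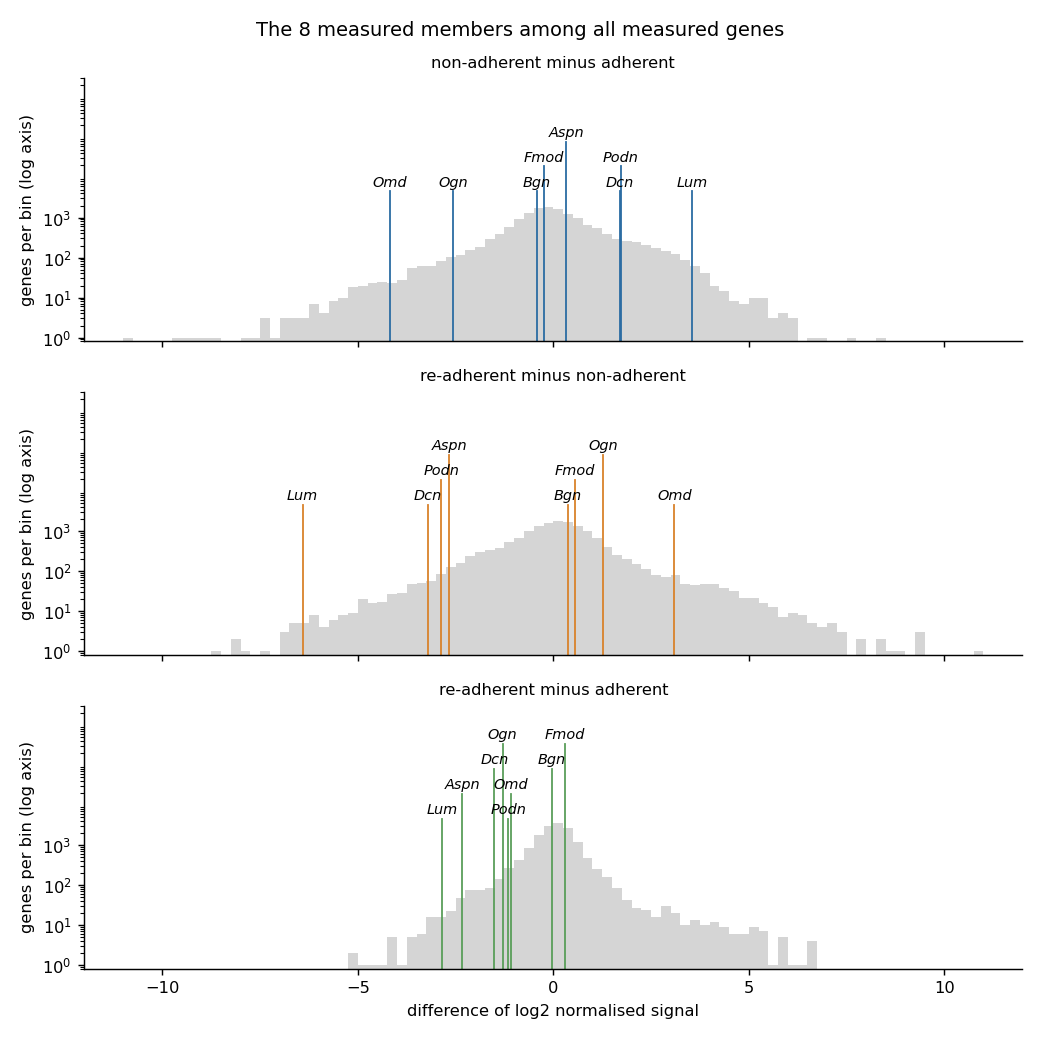
Number of genes (vertical log axis) by difference of log2 normalised signal (horizontal axis) for all 15393 measured genes in the 3 comparisons, with coloured lines at the 8 measured members. In the lowest panel 7 of the 8 lines lie left of 0, among them Bgn at -0.05. In the middle panel Lum lies at -6.41 in the far left tail.

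The scale of the arrays moved all genes together, so the member values were also read against the middle of all genes. Scaling to 7 spike-in probes moved the median of all genes by -0.40 in suspension and by -0.48 in re-adherent against adherent cells. Without scaling the median moved by 0.10, -0.36 and -0.27 in the 3 comparisons, and with the scaled values of the authors by 0.10, -0.27 and -0.18. Against adherent cells, 7 of the 8 members, all but Fmod, had a value below 0 in re-adherent cells under every alternative that gave one. Bgn was among these 7 but differed by less than 2 technical errors, at -0.05 ± 0.20 as reported. The median difference of spots within 5 rows and 5 columns of a member lay between -0.37 and 0.40.

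**Figure D4:**
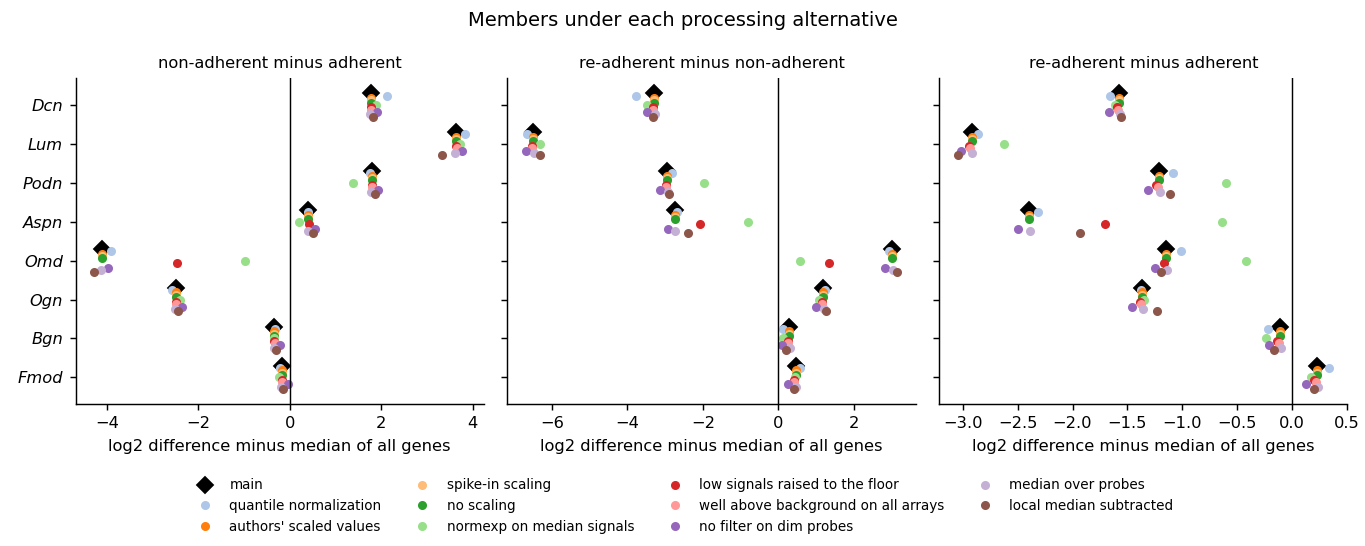
Difference of log2 normalised signal relative to the median of all genes (horizontal axis) for each of the 8 members under each way of processing, for the 3 comparisons, with the value as reported named main. Lum, Dcn and Ogn keep to a narrow range, and the dim members Omd and Aspn shrink towards 0 with normexp, where Omd lay at -0.98 in suspension.

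Family genes that lie side by side did not all differ in the same direction. On chromosome 10 Dcn, Lum, Kera and Epyc follow each other, and both Dcn and Lum were higher in suspension and lower on re-adhesion. Epyc, which encodes epiphycan of cartilage, was well above background in non-adherent cells alone and was at least 1.99-fold higher there than in adherent cells, and the probe of Kera, for keratocan of the cornea, did not exceed background in any state. On chromosome 13 Ecm2 differed by 1.17 in suspension and was at least 3.78-fold lower on re-adhesion, whereas Omd and Ogn had the opposite sign. Aspn had the direction of Ecm2 on re-adhesion and differed by less than 2 technical errors in suspension. On chromosome 1 Optc, Prelp and Fmod follow each other, and Optc, for opticin, was well above background in adherent cells alone, at least 4.6-fold above suspended cells and at least 2.73-fold above re-adherent cells, while Fmod stayed within 2-fold. Whether neighbours differ from each other was not tested.

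**Figure D5:**
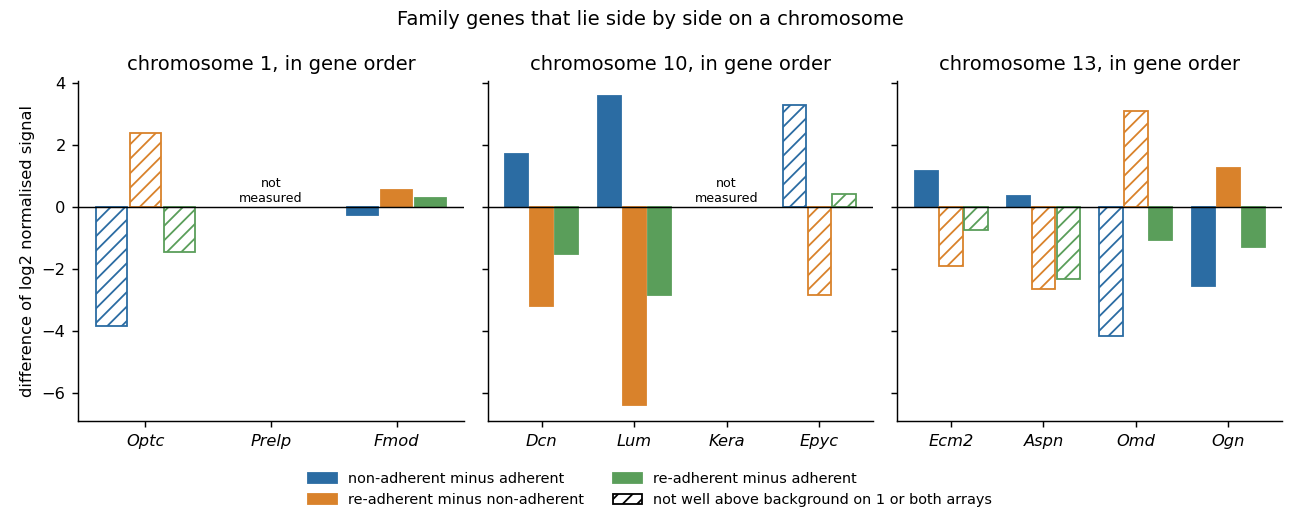
Differences of log2 normalised signal (vertical axis) for family genes in their order on chromosomes 1, 10 and 13, with 1 bar for each of the 3 comparisons and hatched bars where a gene was not well above background on 1 or both arrays. On chromosome 13 Ecm2 and Aspn lie above 0 in suspension while Omd and Ogn lie below it, at -4.18 and -2.57.

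Of 9 further family genes, 8 were measured. With genes that were dim on an array counted at their bound, 3 of the 8 were over 2-fold lower and 1 higher in suspension, 2 were lower and 2 higher on re-adhesion, and 1 was lower and 0 were higher in re-adherent against adherent cells. Optc was among the 3 lower in suspension and was the 1 lower in the last comparison. It passed the filter through adherent cells alone, so this direction came with the filter and is no result about Optc. At the same bound 13.8% of all genes were lower and 15.8% higher in suspension, and 13.9% and 14.9% on re-adhesion. In the last comparison they were 2.94% and 4.07%. By measured value the counts were 3 lower and 2 higher, 4 lower and 3 higher, and 1 lower and 0 higher. The measured shares of all genes were 14.7% and 17.2%, 16.3% and 15.6%, and 4.9% and 4.84%. The medians of the 8 were 0.31, -0.64 and -0.59. In these medians and in the measured counts Epyc, Nyx and Optc enter by spots that were not well above background. Podnl1, the closest relative of podocan, differed by -3.59 ± 0.34 in suspension and 3.11 ± 0.34 on re-adhesion, opposite in sign to Podn. Tsku, the secreted signalling modulator tsukushi, likewise differed by -1.68 ± 0.21 and 1.62 ± 0.21. Chad, for chondroadherin, differed by 0.53 and -1.23, and Chadl by 0.09 and -0.05. Nyx was well above background in non-adherent cells alone.

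The enzymes that build and sulfate the glycosaminoglycan chains were listed as 30 genes, of which 28 were measured. In suspension 3 of the 28 (10.7%) were over 2-fold lower and 2 (7.14%) higher, beside 14.7% and 17.2% of all genes, and on re-adhesion 2 (7.14%) were lower and 3 (10.7%) higher, beside 16.3% and 15.6%. Between re-adherent and adherent cells 2 were lower and 2 higher, or 7.14% each way beside 4.9% and 4.84% of all genes, and 1 was lower with Chsy3 at its bound. The medians were -0.16, 0.11 and 0.06. Ugdh, which makes the UDP-glucuronic acid that chains are built from, was at -1.39 in suspension and 1.28 on re-adhesion, and Chpf, a chondroitin polymerising factor, at -1.17 and 1.33. Xylt2, a xylosyltransferase that starts the chain on the core protein, was at 1.73 and -1.47. The sulfotransferase Chst3 was 1.76 higher in suspension and 1.54 higher in re-adherent than in adherent cells, and Chst11 was -1.20 in that last comparison. Dse, the epimerase that turns chondroitin into dermatan sulfate, differed by -0.56, 0.45 and -0.11.

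Receptors and growth factors bound by the members were all measured, 16 of 16. In suspension 7 were lower and 6 higher, on re-adhesion 6 were lower and 7 higher, and in re-adherent against adherent cells 1 was lower and 2 were higher, with medians of -0.58, 0.75 and 0.29. These were 43.8% lower and 37.5% higher in suspension, the reverse on re-adhesion, and 6.25% and 12.5% between re-adherent and adherent cells, beside 14.7% and 17.2%, 16.3% and 15.6%, and 4.9% and 4.84% of all genes. Tlr2, a receptor of soluble biglycan, differed by 3.63 in suspension, -2.26 on re-adhesion and 1.37 between re-adherent and adherent cells. Its co-receptor Cd14 was 1.38 higher in re-adherent than in adherent cells, and P2rx7, the ATP receptor that biglycan signals with, at 2.58 and -1.98. These genes are expressed by macrophages, whose markers were higher in suspension too, and the part of such cells was not tested. The growth factor genes Bmp4, Ccn2 and Ccn4 had the opposite signs, at -4.66, -4.10 and -3.77 in suspension and 3.93, 4.35 and 4.68 on re-adhesion. Of the TGF-β genes, Tgfb1 was at 2.05 and Tgfb2 at -1.81 in suspension, and Tgfb3 was at -1.23 in re-adherent against adherent cells.

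Of the proteases that process or cleave the core proteins, 10 of 10 were measured, with 1 lower and 2 higher in suspension, 3 lower and 2 higher on re-adhesion, and 2 lower and 0 higher in re-adherent against adherent cells. The shares lower and higher were 10% and 20% in suspension, 30% and 20% on re-adhesion and 20% and 0% between re-adherent and adherent cells, to be read beside the all-gene shares just given. Their medians were 0.00, -0.35 and -0.26. Mmp2, a gelatinase that also cleaves decorin, was 2.49 higher in suspension and at -2.67 on re-adhesion, and Mmp3 was at 1.91 and -3.66. The aggrecanase Adamts5 had the opposite pattern, at -4.32 and 3.80. Bmp1, which removes the propeptides of several members, differed by 0.09, -0.91 and -0.82.

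Of 10 collagens that members bind, 9 were measured, and 3 were lower and 3 higher in suspension. On re-adhesion 3 were lower and 1 higher, and in re-adherent against adherent cells 2 were lower and 0 higher, with medians of 0.19, -0.75 and -0.34. As shares these were 33.3% each way in suspension, 33.3% lower and 11.1% higher on re-adhesion, and 22.2% lower in the last comparison, on 9 genes and beside the same all-gene shares. The fibril genes Col5a2, Col5a1 and Col1a2 were lower in suspension, at -1.58, -1.35 and -1.01. The beaded filament genes Col6a2, Col6a3 and Col6a1 were higher, at 1.96, 1.49 and 1.45. Col6a3 and Col14a1, a fibril-associated collagen, were lower in re-adherent than in adherent cells, at -1.16 and -1.30.

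The genes with profiles nearest to those of the members with the widest range were found by the distance between profiles over 3 arrays, each centred on its own mean, among genes that exceeded background on every array. For Lum they were Sparcl1, a matrix protein related to osteonectin, at a distance of 0.34, Cdh5 at 0.44 and Hp, for haptoglobin, at 0.44. For Dcn they were Plvap, a protein of endothelial fenestrae, at 0.11, Sox7, a transcription factor of vessels, at 0.11 and Gas1 at 0.14. Omd was the other member with a wide measured range, but that range rests on a spot that was not well above background in suspension, so its nearest genes are not given. With 3 points a profile, such nearness is a description only.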

How the data were processed

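Total RNA of 3 samples was hybridised to 1-colour arrays, 1 for each of the adherent, non-adherent and re-adherent groups, all on 1 slide with 1 scan time per the file headers. The deposited scanner files hold intensity per spot from Agilent Feature Extraction 10.10.1.1, made by the authors as a linear processed signal after background subtraction and spatial detrending, with the error and flags of each spot. The intensity matrix of the series equals that signal times 1 constant per array (1.52, 1.52 and 1.62) and was kept as an alternative.

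Here, spots marked as non-uniform or outliers were left out, spots of a probe were averaged, and log2 signal was reduced by the 75th percentile of each array. Of 37881 transcript names, 21465 matched RefSeq accessions of GRCm38.p6, which named 27235 of 55681 probes. A probe entered when 1 or more arrays had it well above background, and the probe with the highest mean stood for its gene. Each member had 1 probe of 1 spot, so agreement between probes could not be checked.

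With 1 array per group no test was run. Errors combine those of both spots by the software, and the number of arrays limits the precision. Where a gene was dim on 1 array, the fold is a bound against its own signal there or, where higher, the dimmest signal of that array still well above background, and counts of genes at this bound were added after seeing the data. The members and gene lists were chosen with earlier results of these data known. Named genes are the members, the other family genes, the genes with profiles nearest to Lum and Dcn, and the 3 largest in each direction of a list. The latter passed 2-fold and were well above background on both arrays. Exceptions were Dse, Bmp1, Tgfb1, Tgfb2 and Ptprc, named for their role after their values were seen, and Emcn, named because it was dim. The 11 alternatives covered scaling, background, filters, probe choice, position and fold. Scripts were tested on simulated data, with Python 3.11.15, pandas 2.3.3, R 4.3.3 and limma 3.58.1, the last used for the normexp alternative.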

Additional observations from a re-analysis of the deposited data

How the results depend on the processing

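Of the 11 alternatives run, the 4-fold limit changes calls only and gives no new member value. Taking the median over probes or dropping the filter could not change a member value either, since each member had 1 probe and all 8 passed the filter. Under the other alternatives that gave it a value, no member that was called changed direction. Uncalled values turned sign in 4 cases, which are Aspn in suspension, Bgn on re-adhesion, and Fmod in suspension and in re-adherent against adherent cells. With the 4-fold limit, 1 member was higher in suspension (against 3), 1 higher on re-adhesion (against 2) and 2 lower in re-adherent than in adherent cells (against 6), by measured value. With dim spots at their bound these last counts were 0 and 1, as Omd and Aspn drop out. The number higher on re-adhesion was also 1 with the scaled values of the authors, without scaling, with normexp, with genes well above background on all arrays and with the local median subtracted, and the number lower in suspension was 1 (against 2) with genes well above background on all arrays, a filter that leaves out Omd and Aspn. With normexp on median signals, chosen after seeing the data because the files hold no mean signal for the planned form, which was not run, 3 members were lower in re-adherent than in adherent cells, and the member medians were -0.20 on re-adhesion and -0.53 between re-adherent and adherent cells. The number lower on re-adhesion was 3 (against 4) with normexp, where Aspn lay at -0.67. It was also 3 with genes well above background on all arrays, which leaves out Aspn. The median on re-adhesion was -1.42 with the values of the authors, -1.51 without scaling, -0.79 with low signals raised to the floor and -1.46 with the local median subtracted. In suspension it was -0.36 with spike-in scaling, 0.72 with genes well above background on all arrays and 0.38 with the local median subtracted. Between re-adherent and adherent cells it was -1.71 with spike-in scaling and -1.49 without scaling. Counts and medians moved in 21 cases and stayed near their reported value in 75. The 75 include every case of the median over probes and of no filter, which could not differ. They also include 4 against 6 members lower in re-adherent than in adherent cells, with genes well above background on all arrays. The tally therefore does not measure how stable the results were.

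No paired analysis was possible because there was 1 array a group. The weak signals of Aspn, Omd and Podn limit their values most, since the dimmest spots still well above background had signals of 16.7 in adherent and 18.3 in re-adherent cells.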

Other observations

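Other proteoglycan core proteins, which are larger matrix proteoglycans and those of the cell surface, also lay on both sides of 0 in suspension. Of 19 genes, 17 were measured, with 6 called lower and 3 higher in suspension, 4 lower and 2 higher on re-adhesion, and 5 lower and 0 higher in re-adherent against adherent cells. As shares these were 35.3% and 17.6%, 23.5% and 11.8%, and 29.4% and 0%, beside 14.7% and 17.2%, 16.3% and 15.6%, and 4.9% and 4.84% of all 15393 genes. The medians were -0.78, 0.17 and -0.42. Gpc4, a glypican anchored to the membrane, was at -2.60 in suspension and 2.94 on re-adhesion, and Cspg4, the NG2 proteoglycan that also marks pericytes, at -2.06 in suspension and -1.43 in re-adherent against adherent cells. Gpc3 was at -1.50 in suspension and was not well above background in re-adherent cells.

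Srgn, the serglycin of leukocyte granules, was 2.98 higher in suspension and at -2.11 on re-adhesion. Prg4, for lubricin, was 2.33 higher in suspension by the probe with the highest mean and 0.33 higher by its other probe, and the first probe was not well above background in re-adherent cells. Sdc3, a syndecan, was 1.15 higher in suspension. Agrn, for the basement membrane proteoglycan agrin, was at -1.51 on re-adhesion and -1.05 in re-adherent against adherent cells, and Tgfbr3, for betaglycan, was at -1.13 in the latter. Hspg2, for perlecan, was 1.22 higher on re-adhesion.

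The 4 epicardial markers summed to 326, 226 and 618 percent of the 75th percentile in adherent, non-adherent and re-adherent cells. The 4 measured of 6 cardiomyocyte markers summed to 103, 165 and 319, and 3, 4 and 3 of them were well above background. These markers were split. In suspension 2 were over 2-fold higher and 0 lower, beside 17.2% and 14.7% of all genes. On re-adhesion 1 was higher and 2 were lower, beside 15.6% and 16.3%. In re-adherent against adherent cells 2 were higher and 1 was lower, beside 4.84% and 4.9%, or 0 lower with dim spots at their bound.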
